A study of Rattus norvegicus with 12 samples.

Results

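The Iroquois homeobox genes Irx1, Irx2, Irx3, Irx4, Irx5 and Irx6 were taken from the deposited gene table of the left ventricle of rats by their symbols, which gave 6 of its 34700 genes. The family was chosen by the measured level of Irx5, which differed between the BAIBA and HFE groups, so for all members the values of that comparison are given as a description, and the same holds for Irx5 in any other comparison with the HFE or BAIBA rats. Irx3 varied with Irx5 over the 12 rats (r = 0.959), so its p-values in those comparisons are not independent of this choice. The series held 12 male Sprague-Dawley rats in 4 groups of 3 (Sham, HF, HFE and BAIBA), and all were operated on at 8 weeks of age. Sham rats had a thread passed around the coronary artery without a knot, whereas in HF, HFE and BAIBA rats the left anterior descending branch was tied off to give heart failure after infarction. HF rats stayed sedentary, and HFE rats had treadmill sessions of 60 min, 5 days a week, for 8 weeks. BAIBA rats received β-aminoisobutyric acid, a small molecule that contracting muscle releases, by oral gavage at 75 mg/kg/day for 8 weeks. In its BAIBA experiment the study gave Sham and HF rats water by gavage, and it describes no gavage for exercised rats. Whether the sequenced Sham and HF rats came from that experiment or from the exercise experiment is not stated. The hearts were collected at 12 weeks after the operation. The study describes the sampling site in different ways, once as anterior left ventricular wall with BAIBA tissue alone from beside the infarct, and once with both HF and BAIBA tissue from beside it. Whether the site differed between these groups is therefore not known, and where it did, treatment and site cannot be told apart.

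Iroquois proteins are transcription factors of the TALE class of homeodomain proteins, and in mammals they lie in clusters of neighbouring genes. In the ventricle, Irx4 is known as a factor that keeps the ventricular programme and represses atrial genes. Irx5 is known for the gradient of repolarization across the ventricular wall, where it represses the potassium channel gene Kcnd2, and Irx3 is known for fast conduction in the Purkinje network, where it represses Gja1 and favours Gja5. Irx1 and Irx2 are present in the developing ventricular septum, and a role in the adult ventricle is less well defined.

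In the RefSeq annotation of GRCr8, Irx4, Irx2 and Irx1 followed each other on chromosome 1 over 1270 kb, and Irx6, Irx5 and Irx3 on chromosome 19 over 885 kb, with 0 other protein-coding genes inside either cluster. The 250 bases before the gene start are shown for Irx4, Irx2, Irx1 and Irx3, because members of a cluster differed in how they varied between rats. They lie at chr1:31868090-31868339 (minus strand), chr1:32494931-32495180 (minus strand), chr1:33122872-33123121 (plus strand) and chr19:31384868-31385117 (plus strand), and capitals mark the motifs CCAAT and CACGTG on either strand.
Irx4 promoter: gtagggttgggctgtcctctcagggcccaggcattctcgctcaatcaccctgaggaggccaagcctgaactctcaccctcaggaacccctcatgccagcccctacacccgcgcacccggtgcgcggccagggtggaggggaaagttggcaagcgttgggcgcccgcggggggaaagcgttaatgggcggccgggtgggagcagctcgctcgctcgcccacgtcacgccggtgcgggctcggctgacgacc
Irx2 promoter: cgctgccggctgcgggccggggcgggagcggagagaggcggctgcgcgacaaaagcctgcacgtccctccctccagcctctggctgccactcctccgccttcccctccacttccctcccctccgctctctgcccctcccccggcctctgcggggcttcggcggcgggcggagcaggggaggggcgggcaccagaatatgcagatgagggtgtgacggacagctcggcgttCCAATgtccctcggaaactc
Irx1 promoter: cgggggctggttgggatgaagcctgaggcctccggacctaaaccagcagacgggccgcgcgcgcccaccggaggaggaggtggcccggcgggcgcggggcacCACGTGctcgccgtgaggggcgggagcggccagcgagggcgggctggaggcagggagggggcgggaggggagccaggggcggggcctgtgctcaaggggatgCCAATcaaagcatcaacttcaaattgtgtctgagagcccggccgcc
Irx3 promoter: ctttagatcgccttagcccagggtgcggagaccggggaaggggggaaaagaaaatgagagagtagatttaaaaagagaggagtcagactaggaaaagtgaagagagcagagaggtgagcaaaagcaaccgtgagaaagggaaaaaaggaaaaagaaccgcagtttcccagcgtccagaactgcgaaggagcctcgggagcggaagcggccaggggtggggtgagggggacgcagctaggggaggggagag
The Iroquois binding motif ACANNTGT was in 0 of these 4 promoters and in 0 of the 13 promoters found for 14 listed cardiac targets and partners of Irx proteins, against 6.71% of 33469 promoters of that length. CCAAT had 1 match in each of the promoters of Irx1 and Irx2, whose levels are described together further on, and occurred in 34.0% of all promoters. CACGTG had 1 match in the Irx1 promoter and occurred in 5.59% of all promoters. GATAA and TATAA, in 23.5% and 24.0% of all promoters, had 0 matches in the 4. All motifs were searched on both strands, and the ones other than ACANNTGT were chosen after the data had been seen. The promoters of Irx1, Irx2 and Irx4 held 23, 23 and 22 CG dinucleotides and that of Irx3 held 11, against a median of 5 over all promoters.

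Reads were counted on genes, with totals between 14812541 and 19732588 per rat. CPM below is the count relative to library size after TMM normalization over the 12 rats, and it serves to compare rats. FPKM, the authors' value scaled by gene length and library size, serves to compare genes. Ventricular markers were high in every rat, with a summed level of 7 markers between 25643 and 33757 CPM. Whole-tissue RNA was measured, in which fewer cells of a type and less RNA per cell cannot be told apart.

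Irx4 had the highest level of the family, followed by Irx3, Irx5, Irx2 and Irx1, with mean FPKM over the 12 rats of 8.62, 6.35, 4.38, 2.08 and 0.864. This order held by group mean in the Sham, HF and BAIBA groups, while in the HFE group Irx3 (10.6 ± 3.87 FPKM, SD, n = 3) stood next to Irx4 (10.4 ± 3.78 FPKM, SD, n = 3) with a difference far below the spread between rats. Irx4 was the highest member in 8 of the 12 rats. Irx3 and Irx5 were also neighbours within their spread in the Sham group, at 7.23 ± 2.19 and 5.65 ± 1.66 FPKM (SD, n = 3). Irx6 had 0 counts in all 12 rats, which allows up to 0.152 to 0.203 CPM per rat (3 counts of the total, counting error only). Of the 6 genes, 5 therefore passed the filter on low counts.

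Irx4 was the steadiest member. Its level was 19.3, 24.1 and 24.0 CPM in the Sham rats, 18.1, 18.5 and 23.7 CPM in the HF rats, 36.9, 25.2 and 19.4 CPM in the HFE rats and 18.0, 24.0 and 14.6 CPM in the BAIBA rats. The groups overlapped throughout, and the highest rat was 2.53 times the lowest. For Irx3 that ratio was 19.2, for Irx5 10.3, for Irx1 63.7 and for Irx2 102.

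Irx3 was 13.2, 13.3 and 7.22 CPM in the Sham rats, 6.02, 13.4 and 7.68 CPM in the HF rats, 23.2, 12.7 and 14.8 CPM in the HFE rats and 2.40, 4.94 and 1.21 CPM in the BAIBA rats. All 3 BAIBA rats lay below all 9 others, the highest of them at 4.94 CPM and the lowest other rat at 6.02 CPM. Irx5, its neighbour on chromosome 19, was 16.8, 14.6 and 8.86 CPM in the Sham rats, 5.10, 15.5 and 7.52 CPM in the HF rats, 19.2, 16.2 and 13.6 CPM in the HFE rats and 3.90, 3.72 and 1.87 CPM in the BAIBA rats. Again the BAIBA rats were lowest, with 3.90 CPM at most against 5.10 CPM at least elsewhere. Among all 15617 genes tested over the 12 rats, 0.852% had all BAIBA rats below the 9 others, and since Irx5 was picked out for a difference of this kind the pattern is a description.

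**Figure D1:**
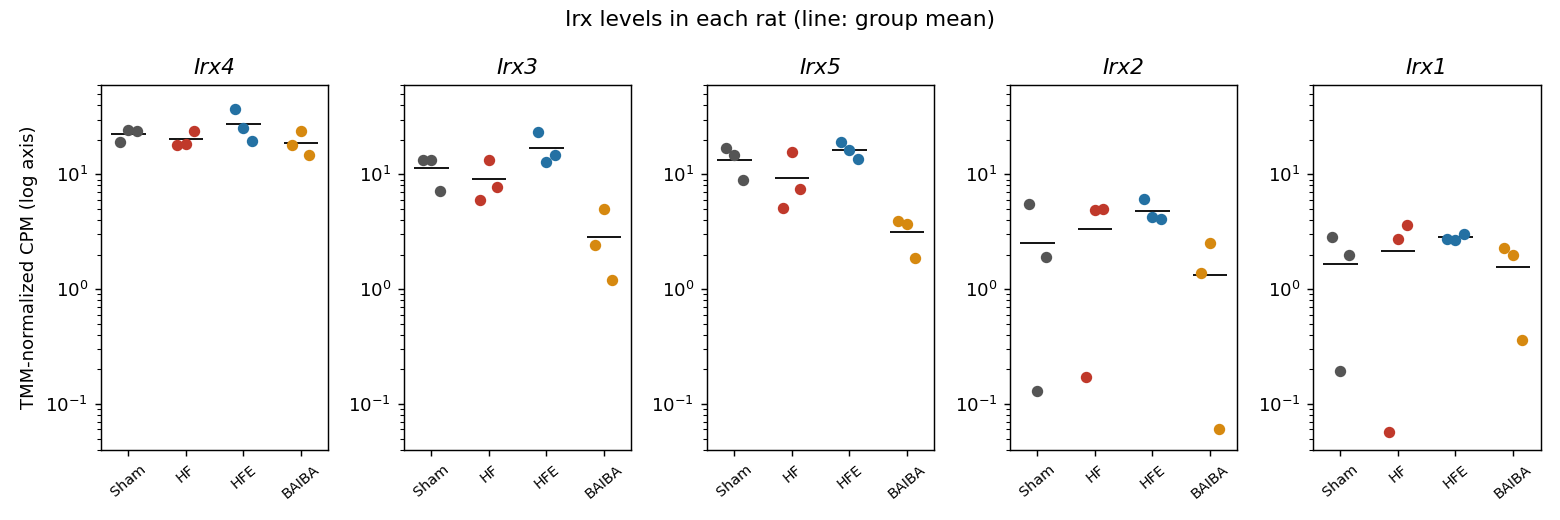
TMM-normalized CPM on a log axis for the 5 Irx genes with counts, with a point for each rat and a line at the mean of each group of 3. The BAIBA rats lie below all others for Irx3 and Irx5, all groups overlap for Irx4, and single rats of the Sham, HF and BAIBA groups fall far below the rest for Irx1 and Irx2.

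The make-up of the family followed from these levels. Irx4 made up 63.5% ± 11.3 of the summed Irx FPKM in the BAIBA rats (SD, n = 3), against 37.6% ± 10.2 in the Sham, 40.6% ± 13.4 in the HF and 32.0% ± 3.30 in the HFE rats. Irx3 made up 14.0% ± 4.44 in the BAIBA rats and 29.5% ± 6.0, 27.7% ± 5.16 and 32.7% ± 3.99 in the Sham, HF and HFE rats. The Irx4 share was between 56.1% and 76.5% in the BAIBA rats and at most 53.5% in any other rat.

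**Figure D2:**
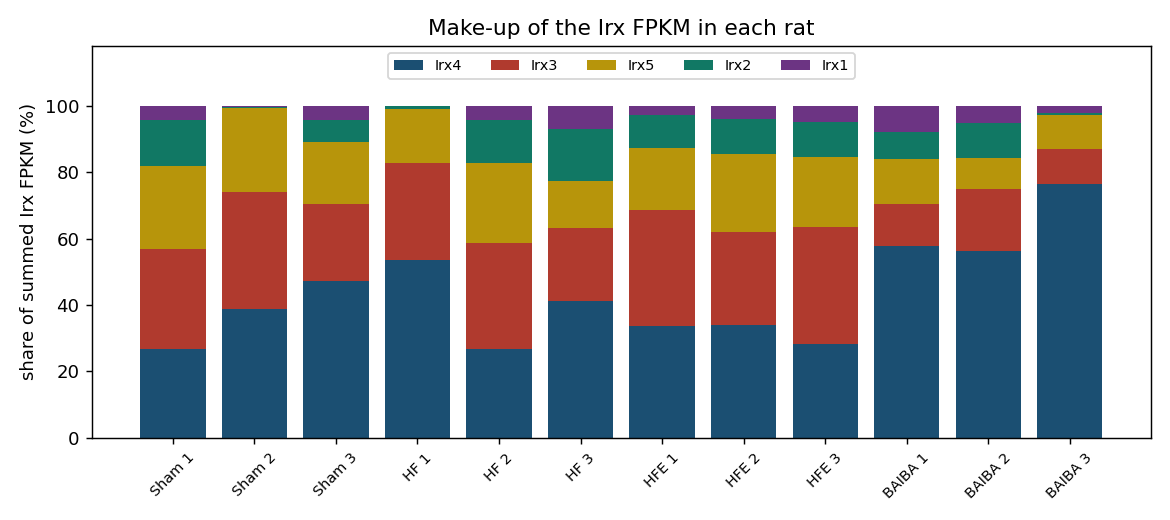
Share of each Irx gene in the summed Irx FPKM (percent), with a stacked bar for each of the 12 rats. Irx4 takes 56.1% to 76.5% in the BAIBA rats and less in every other rat.

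Irx2 and Irx1, neighbours on chromosome 1, were low in the same rats. Irx2 was 5.48, 0.130 and 1.90 CPM in the Sham rats, 0.172, 4.91 and 4.98 CPM in the HF rats, 6.13, 4.29 and 4.05 CPM in the HFE rats and 1.39, 2.50 and 0.0603 CPM in the BAIBA rats. Irx1 was 2.83, 0.194 and 1.97 CPM in the Sham rats, 0.0573, 2.76 and 3.65 CPM in the HF rats, 2.73, 2.70 and 3.04 CPM in the HFE rats and 2.29, 1.99 and 0.362 CPM in the BAIBA rats. Sham rat 2, HF rat 1 and BAIBA rat 3 had fewer than 10 counts of either gene, namely 3, 1 and 6 of Irx1 and 2, 3 and 1 of Irx2. The other 9 rats had 30 to 69 counts of Irx1 and 25 to 95 of Irx2, so that the low rats came from 3 groups and the HFE group held none. Irx4, from the same cluster, was between 14.6 and 24.1 CPM in these 3 rats and between 18.0 and 36.9 CPM in the others, and the ranges overlapped.

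The question of the infarct itself is put by HF against Sham. A gene counted as called when its adjusted p was below 0.05 and its log2 fold change exceeded 1 in either direction. By edgeR 0 members and 0% of the 14957 genes tested were called, DESeq2 called 0 members, and 0 members had an unadjusted p under 0.05, as 6.02% of genes did. By edgeR's quasi-likelihood test, the log2 fold change of Irx5 was -0.53 ± 0.44 (SE, Benjamini-Hochberg adjusted p = 0.866) and that of Irx3 -0.32 ± 0.36 (SE, adjusted p = 0.912). Irx4 differed by -0.16 ± 0.14 (SE, edgeR adjusted p = 0.868), and for Irx2 and Irx1 the SE of 1.31 and 1.19 exceeded the differences of 0.40 and 0.36. The rats of both groups overlapped for all 5 members, while 11.8% of genes did not overlap. The exact permutation test of 3 rats against 3, whose smallest two-sided p is 0.1, gave p = 0.3 for Irx5 and p = 0.7 for Irx3.

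With all infarcted groups set against Sham in a fit of the 12 rats, Irx3 had a log2 fold change of -0.57 ± 0.36 (SE, edgeR adjusted p = 0.838). Irx5 lay at -0.78, as a description, since these groups hold the rats on which it was selected. By edgeR 0 members and 0% of 15617 genes were called, by DESeq2 0 members, and 0 of the 4 tested members had an unadjusted p under 0.05 (6.34% of genes). The other members differed by -0.04 (Irx4), 0.13 (Irx2) and 0.34 (Irx1) on the log2 scale. With both treated groups set against HF, where edgeR called 0 members and 0% of genes, DESeq2 called 0 members and 0 of the 4 tested members had an unadjusted p under 0.05 (7.81% of genes), the log2 fold change was -0.39 ± 0.40 for Irx3 (SE, edgeR adjusted p = 0.834) and, as a description, -0.38 for Irx5. These fits average groups on the log scale, and the arithmetic means lay the other way for both genes, at 9.87 CPM in the treated and 9.04 CPM in the HF rats for Irx3 and at 9.75 and 9.36 CPM for Irx5.

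In HFE against HF, edgeR called 0 members and 0% of 14938 genes. All 5 members, Irx5 included, had higher means in the exercised rats, and 7219 of the 14938 genes had a log2 fold change above 0. For Irx1 and Irx2 the medians lay the other way, at 2.73 CPM against 2.76 CPM in HF and 4.29 CPM against 4.91 CPM. HF rat 1 had 1 count of Irx1 and 3 of Irx2. DESeq2 called 0 members, and 1 tested member, Irx3, had an unadjusted p under 0.05, as did 7.62% of genes. Irx3 had a log2 fold change of 0.90 ± 0.35 (SE, edgeR adjusted p = 0.644) and Irx4 of 0.44 ± 0.24 (SE, edgeR adjusted p = 0.689). Irx5 was higher by 0.80 on the log2 scale, given as a description. The rats overlapped for each member, while 14.4% of genes did not overlap. Against Sham, with 0 members and 0% of 14804 genes called by edgeR, 0 members by DESeq2 and 0 members at an unadjusted p under 0.05 (11.2% of genes), the HFE rats differed by 0.59 ± 0.31 for Irx3 (SE, edgeR adjusted p = 0.522) and by 0.28 ± 0.23 for Irx4 (SE, edgeR adjusted p = 0.691).

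In BAIBA against HF, Irx3 had a log2 fold change of -1.67 ± 0.53 (SE) with an edgeR adjusted p of 0.851, so it was not called, and 0% of 15039 genes were. DESeq2 called 0 members, and Irx3 was the tested member with an unadjusted p under 0.05, as for 5.51% of genes. Because Irx3 varied with Irx5, on which the family was chosen, its p is not independent of that choice. Irx5 lay at -1.56 in the same comparison, as a description. For Irx3 and Irx5, 2 of 5 members, every BAIBA rat was below every HF rat, which held for 5.37% of genes tested. Irx4 differed by -0.09 ± 0.20 (SE, edgeR adjusted p = 0.956), and Irx2 and Irx1 by -1.35 ± 1.26 and -0.48 ± 1.10 (SE), with overlapping rats.

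In BAIBA against Sham, edgeR called 0.0402% of 14920 genes and 0 members, and Irx3 was the tested member with an unadjusted p under 0.05, as for 7.43% of genes. Irx3 had a log2 fold change of -1.98 ± 0.49 (SE) with an edgeR adjusted p of 0.462, and DESeq2 gave the same fold change with an adjusted p of 0.00268, so this call turned on the tool. As against HF, the p-values of Irx3 are not independent of the choice of Irx5. Irx5 lay at -2.08 as a description. Both were lower in every BAIBA rat than in every Sham rat, as were 6.17% of genes. Irx4 differed by -0.25 ± 0.19 (SE, edgeR adjusted p = 0.831).

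BAIBA against HFE is the comparison on which Irx5 was selected. The log2 differences were -2.57 for Irx3, -2.36 for Irx5, -1.87 for Irx2, -0.86 for Irx1 and -0.53 for Irx4. The first 4 of these did not overlap and were lower in all 3 BAIBA rats, a pattern found in 8.37% of genes, and Irx5 was within the 0.0808% of genes called. Nothing is read from that call, because the family was selected on this comparison, and no test is attached to these values.

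**Figure D3:**
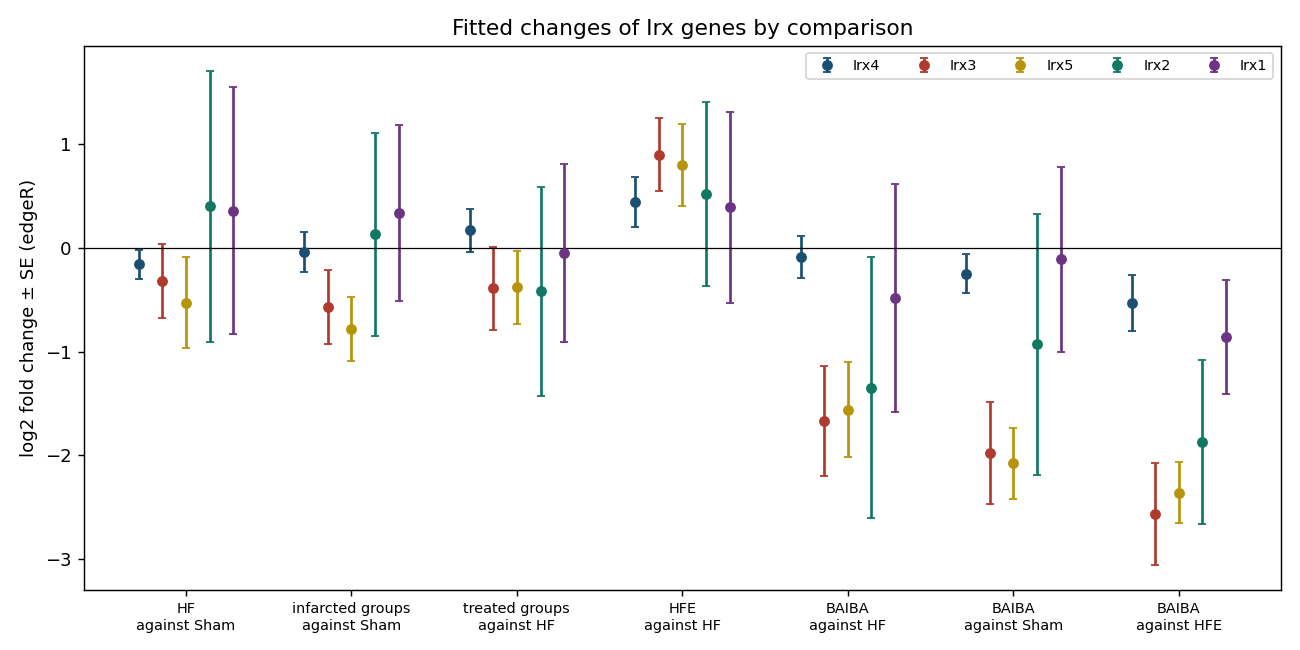
Fitted log2 fold changes (points) with their SE (bars) for 5 Irx genes in 7 comparisons. Irx3 and Irx5 lie between -1.56 and -2.57 wherever BAIBA rats are compared with a single other group, while Irx4 stays within -0.53 to 0.44 and Irx1 and Irx2 have wide bars. Values of Irx5 in comparisons with HFE or BAIBA rats and all values of BAIBA against HFE are descriptions.

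Of the 10 pairs of members, Irx3 with Irx5 and Irx1 with Irx2 had the highest correlations between rats of the same group. After removal of the group means, Irx3 and Irx5 had a Pearson r of 0.836 over the 12 rats (exact permutation within groups, p = 0.00617, adjusted p = 0.0617 over 10 pairs of members) and a Spearman rho of 0.825 (exact permutation p = 0.0147, adjusted p = 0.0772). Without the 2 rats farthest from the median of Irx3, r was 0.874. Irx1 and Irx2 had an r of 0.960 (exact permutation p = 0.0154, adjusted p = 0.0772) and a rho of 0.895 (exact permutation p = 0.0154, adjusted p = 0.0772), and r was 0.930 without the 2 rats farthest from the median of Irx1. None of the 10 pairs passed an adjusted p of 0.05. The Irx1 and Irx2 values fall into a low set of 3 rats and a high set of 9, so that this r rests largely on the distance between the sets. The ratio of Irx3 to Irx5 FPKM stayed between 0.941 and 2.03 in the 12 rats.

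**Figure D4:**
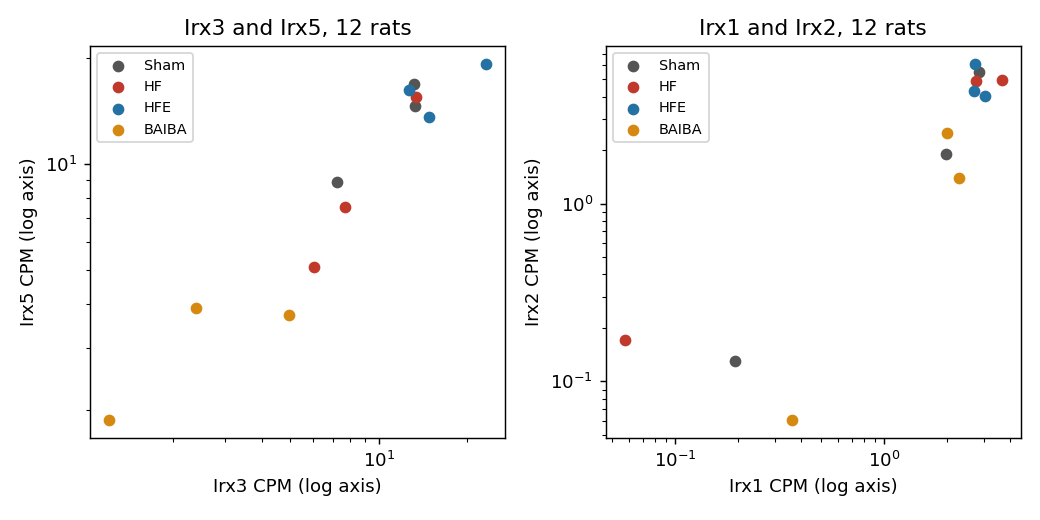
CPM of Irx5 against Irx3 and of Irx2 against Irx1 on log axes, with a point for each of 12 rats coloured by group. The BAIBA rats form the low end of the first pair, and 3 rats from the Sham, HF and BAIBA groups form the low end of the second.

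Over the 12 rats, with group differences included and no p attached, the gene most like Irx3 was Irx5 (r = 0.959), and the next for both was Hcn4, a pacemaker channel gene of the conduction system (r = 0.936 with Irx3 and 0.935 with Irx5, of 14214 genes with a symbol). Hcn4 was 64.3, 32.8 and 35.6 CPM in the Sham rats, 9.29, 89.8 and 46.7 CPM in the HF rats, 137, 79.3 and 51.0 CPM in the HFE rats and 7.58, 17.3 and 3.14 CPM in the BAIBA rats. HF rat 1 and BAIBA rat 3 were the lowest of their groups for Irx3, Irx5 and Hcn4 alike. In the Sham group the lowest was rat 3 for Irx3 and Irx5 but rat 2 for Hcn4. In the HFE group it was rat 2 for Irx3 but rat 3 for Irx5 and Hcn4. Tnni1, the slow skeletal troponin I, followed for Irx3 (r = 0.917). For Irx1 and Irx2 the most alike genes were each other (r = 0.930), and Pirt was also much like Irx2 (r = 0.914). The gene with a symbol most like Irx4 was LOC100909441 (r = 0.863).

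Of the 14 listed targets and partners of Irx proteins, 13 were in the table, 11 passed the filter and 0 were called in any comparison. Gja1, the main ventricular connexin, was 612, 603 and 586 CPM in the HFE rats and 386, 385 and 440 CPM in the HF rats, without overlap, at a log2 fold change of 0.57 ± 0.08 (SE, edgeR adjusted p = 0.47). Gja5, the connexin of the Purkinje network, overlapped, at 0.38 ± 0.25 (SE, edgeR adjusted p = 0.718). In BAIBA against HF, Gja1 differed by -0.10 ± 0.14 (SE, edgeR adjusted p = 0.922) and Kcnip2, a subunit of the transient outward potassium channel, by 0.05 ± 0.18 (SE, edgeR adjusted p = 0.968). The median log2 fold change of the 11 genes in that comparison was -0.10, against -0.01 for all genes tested. That of the 5 Irx genes was -1.35, as a description. It is the value of Irx2 (SE 1.26), and the 5 include Irx5, on which the family was chosen, and Irx4 at -0.09. Kcnd2 was not analysed here.

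The other 12 TALE homeobox genes, which include the Meis and Pbx cofactors, gave 11 tested and 0 called in each comparison. Their summed level was between 149 and 177 CPM in all rats, and their median log2 fold change in BAIBA against HF was 0.16. The 14 cardiac regulators upstream of or beside the Irx genes had 12 tested and 0 called, with a median of 0.00. Gata4, a cardiac GATA factor, was lower in every BAIBA rat than in every HF rat (log2 fold change -0.26 ± 0.11, SE, edgeR adjusted p = 0.851), as were 5.37% of genes. Its BAIBA rats, at most 72.2 CPM, also lay below all 9 others, at least 73.5 CPM, as for 0.852% of genes. Hey2, a transcriptional repressor that acts downstream of Notch, was higher in every BAIBA rat than in every HF rat (0.53 ± 0.17, SE, edgeR adjusted p = 0.851). Of 10 protein-coding neighbours of each Irx cluster, 7 passed the filter at each, and 0 were called. Those beside Irx3, Irx5 and Irx6, among them Fto, differed between BAIBA and HFE by -0.31 to 0.30 on the log2 scale.

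Of the cell type lists, 0 genes were called. Sums of epicardial, macrophage, fibroblast and erythroid markers reached higher in the BAIBA group but overlapped with the other rats. The endothelial sum reached lower, with 464 to 737 CPM in the BAIBA rats and 592 to 877 CPM elsewhere. So did the atrial sum, with 82.5 to 295 CPM against 120 to 646 CPM, and both overlapped. The smooth muscle sum lay within the range of the other rats. The summed level of 5 epicardial and mesothelial markers was 23.9 to 80.7 CPM in the BAIBA rats and 18.1 to 25.5 CPM elsewhere, that of 5 macrophage markers was 117 to 867 CPM against 71.5 to 186 CPM, and that of 7 fibroblast and scar markers was 1472 to 2098 CPM against 1121 to 1719 CPM. The high macrophage sum came from BAIBA rat 1, whose Lyz2 level was 758 CPM, against 57.5 and 61.5 CPM in BAIBA rats 2 and 3. Msln, a mesothelial marker, was 36.1, 1.03 and 10.3 CPM in the BAIBA rats and 5.33, 0.0613 and 0 CPM in the HF rats, so that HF rat 1 stood above BAIBA rat 2. In the Sham rats it was 0.750 to 2.50 CPM and in the HFE rats at most 0.0666 CPM. The atrial light chain gene Myl7 was 0.302 to 0.669 CPM in the BAIBA rats and 0.443 to 40.6 CPM in the others. The summed level of 8 conduction system markers, which include Hcn4, was 73.4 to 106 CPM in the BAIBA rats and 77.7 to 225 CPM in the others. Hcn4 was lower in every BAIBA rat than in every HFE or Sham rat. Etv1 was lower in every BAIBA rat than in every Sham rat (log2 fold change -0.45 ± 0.17, SE, edgeR adjusted p = 0.639). Cntn2, another of these markers, was higher in every BAIBA rat than in every HFE or Sham rat, by 1.04 and 0.54 on the log2 scale and not called. The list's median log2 fold change in BAIBA against HF was -0.07, with 3 of 6 tested genes above 0. Against Sham it was -0.20 with 2 of 6 above 0, and against HFE -0.33 with 2 of 7. Ventricular markers summed to 25643 to 26355 CPM in the BAIBA rats and to 26660 to 33757 CPM in the others. Single markers did not all go this way. In BAIBA against HF their median log2 fold change was -0.12, with 3 of 7 above 0. Against Sham it was -0.11 with 2 of 7 above 0, and against HFE -0.18 with 1 of 7. Compared with every HF rat, every BAIBA rat was lower for Actc1 (-0.38) and higher for Tnni3 (0.22), neither called. The part of these differences in the Irx3 and Irx5 levels was not tested. Beside Msln at 36.1, 1.03 and 10.3 CPM in BAIBA rats 1, 2 and 3, Irx3 was 2.40, 4.94 and 1.21 CPM. Irx5 was 3.90, 3.72 and 1.87 CPM in the same rats, and a relation to Msln was not tested.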

How the data were processed

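Left ventricular RNA of 12 rats was sequenced as paired-end, oligo(dT)-selected libraries. The authors used HISAT2 for alignment, StringTie to assemble unannotated genes and featureCounts for counting. The deposited counts were raw, and the deposited FPKM values were made by the authors from these counts. The submitters' processing notes name mm9, a mouse build, whereas the gene identifiers are rat Ensembl, so no coordinates of the files were used. Whether counting used the strand is not given in the sources used here. Gene order and promoter sequences came from RefSeq (GRCr8), where promoters of 4 of the 6 Irx genes were found.

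The main tests used edgeR 4.0.16 under R 4.3.3 (TMM, filterByExpr, robust quasi-likelihood fits on the 2 groups compared, or on all 12 rats for contrasts of several groups). Benjamini-Hochberg adjustment ran over all genes that passed the filter, and calls needed an adjusted p below 0.05 with a log2 fold change beyond 1 in either direction. The SE is the log2 fold change divided by the root of the F statistic. Exact permutation tests and correlations used log2(CPM + 0.1). The fits were tested on simulated data. Alternatives were DESeq2 1.42.0, RLE or library-size scaling, other filters, all 12 rats in every fit, a replicate block, leaving out each rat, no limit on the fold change, and limma 3.58.1 on log2(FPKM + 1) and log2(FPKM + 0.1).

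Members and lists were chosen with earlier results of these data known. Named were all Irx genes, listed genes that were called or did not overlap with a few further examples, the 5 genes most like each member, and the 5 neighbours on each side of a cluster. A gene that this rule names is not reported here. Replicate numbers come from the sample titles. Same-numbered rats deviated together (every r over 0.1) between HFE and BAIBA only, with r of 0.173, 0.226 and 0.118. The rats are separate samples by their labels, and p-values measure the spread between them. Intervals and floors cover counting error only.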

Additional observations from a re-analysis of the deposited data

Results flagged for a closer look

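Irx3 and Irx5 were marked for a closer look because the HFE rats and the BAIBA rats lay on opposite sides of the HF mean. The log2 difference of BAIBA minus HFE was -2.57 for Irx3 and -2.36 for Irx5. The difference between the HFE and BAIBA effects was not tested for this purpose, and the call of Irx5 by edgeR in this comparison is no support, since the family was selected on it.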

How the results depend on the processing

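Calls in BAIBA against HFE, on which Irx5 was selected, and of Irx3 and Irx5 in BAIBA against Sham show only how the threshold moves with the processing. The number of Irx genes called in BAIBA against HFE was 1, and it became 2 with DESeq2 and 0 with library-size scaling, with all 12 rats in the fit and with limma on log2(FPKM + 1) or log2(FPKM + 0.1). In BAIBA against Sham it was 0, and it became 2 with DESeq2 and 1 with the replicate block. Same-numbered rats are not paired in that comparison. The block changed no other call of an Irx gene. With each rat left out in turn, the number called in BAIBA against HFE ranged from 0 to 1. It fell to 0 without HFE rat 1, 2 or 3 and without BAIBA rat 2 or 3. Over all genes, DESeq2 called 69 in BAIBA against Sham and 156 in BAIBA against HFE, where edgeR called 6 and 12. In the other comparisons, where edgeR called 0, DESeq2 called 24 (HF against Sham), 20 (HFE against HF), 27 (BAIBA against HF), 68 (HFE against Sham), 10 (infarcted groups against Sham) and 7 (treated groups against HF).

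Without removal of group means, r was 0.93 for Irx1 and Irx2 and 0.959 for Irx3 and Irx5, given without a p because these values hold the group differences on which Irx5 was selected. Limma on log2(FPKM + 0.1) turned the direction of Irx1 in BAIBA against HF (0.03), BAIBA against Sham (0.08) and treated groups against HF (0.52), and of Irx2 in the last (0.09), and limma on log2(FPKM + 1) turned Irx1 there too (0.09). The cause was not tested. Leaving out each rat turned further directions. Irx1 then ranged from -0.25 to 1.00 in HF against Sham, -0.19 to 1.01 in HFE against HF, -1.05 to 0.15 in BAIBA against HF, -0.63 to 0.52 in BAIBA against Sham, -0.18 to 0.97 in infarcted groups against Sham and -0.61 to 0.57 in treated groups against HF. Irx2 ranged from -0.15 to 1.73, -0.04 to 0.93, -1.76 to 0.38 and -0.42 to 1.45 in HF against Sham, HFE against HF, BAIBA against Sham and infarcted groups against Sham. Irx4 ranged from -0.30 to 0.07 in BAIBA against HF, 0.00 to 0.48 in HFE against Sham and -0.14 to 0.02 in infarcted groups against Sham. In treated groups against HF, Irx3 ranged from -0.71 to 0.01 and Irx5 from -0.67 to 0.19, with HF rat 2 deciding the sign. Irx3 and Irx5 stayed lower in BAIBA against HF and BAIBA against Sham under every alternative run. Groups of 3 rats and counts under 10 of Irx1 and Irx2 in 3 rats limit all values.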
